A study of Rattus norvegicus with 16 samples.

Results

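The comparison set the ovaries of wild-type rats given olaparib against the ovaries of BRCA1+/- rats given vehicle, so that inhibition of PARP alone stood against the loss of 1 BRCA1 allele alone. The members were the arrays titled as olaparib-injected wild-type ovaries 1 to 4 and as vehicle BRCA1+/- ovaries 1 to 4, which are 8 of the 16 arrays of the series. All rats were females of the Jcl:SD stock of Sprague-Dawley rats. Those in the WT olaparib group (n = 4) were wild-type for BRCA1 and received 50 mg/kg olaparib under the skin once a day for 14 days from 3 weeks of age, with the ovary excised 24 h after the final dose. The BRCA1+/- vehicle group (n = 4) carried the heterozygous BRCA1 genotype and received vehicle in place of the drug. The WT vehicle group (n = 4) had neither the drug nor the genotype and gives the level against which both were placed. The fourth group, BRCA1+/- olaparib (n = 4), entered the fit and is shown for a few genes. The composition of the vehicle, its schedule and the exact change in the BRCA1 allele are not given in the sources used here. Nor is the age of the vehicle rats at excision, so a match in age with the olaparib rats is not known here. The design gives 16 animals for 16 arrays of ovary tissue, so a p-value measures the spread between animals.

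PARP1, PARP2 and PARP3 are enzymes that bind broken DNA and mark proteins there with chains or single units of ADP-ribose, which helps single-strand breaks to be found and closed. Olaparib occupies their active site and holds them on the DNA, and forks that meet such a complex need homologous recombination, the repair pathway in which BRCA1 acts, to be restored. The ovary at the age of the olaparib rats holds a fixed stock of oocytes in small follicles. It also holds growing follicles whose granulosa cells divide and make oestrogen, and a stroma with vessels and immune cells.

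Signals are given as the log2 signal, which is the log2 processed spot signal minus the 75th percentile of its array, and a difference is WT olaparib minus BRCA1+/- vehicle on that scale unless other groups are named. The 75th percentile lay between 202.4 and 566.0 units over the 16 arrays, 55.5% to 60.7% of the probes were well above background, and the lowest Pearson correlation between 2 arrays across genes was 0.902. The arrays lay on 2 slides, with replicates 1 and 2 of every group on slide 1 and replicates 3 and 4 on slide 2. Each group kept 1 column position on both slides, so column position and group cannot be told apart. Positions of probes are on the build rn4, as the array files give them. The arrays held the granulosa genes of an ovary at high level, with Hsd17b1, which makes oestradiol from oestrone, at log2 signals of 6.27 to 6.73 in WT olaparib ovaries, 5.30 to 6.33 in BRCA1+/- vehicle ovaries and 6.23 to 7.06 in WT vehicle ovaries. Genes of oviduct and ciliated cells were not level within groups. Their list score, the mean log2 signal of 16 tested members with each centred on its own mean over the series, was 3.51, -1.56, 3.10 and -0.60 in WT olaparib replicates 1 to 4, -1.19, -2.12, 3.67 and 1.32 in BRCA1+/- vehicle replicates 1 to 4, and -2.45 to -0.99 in WT vehicle ovaries. A positive score was thus seen on 2 arrays of each group compared and on none of the WT vehicle arrays. It was also seen on 2 BRCA1+/- olaparib arrays, and values without these 6 arrays are given beside many of the results. Those values set only 2 arrays against 2, WT olaparib replicates 2 and 4 against BRCA1+/- vehicle replicates 1 and 2. The latter were both on slide 1, the former on slides 1 and 2. Oviduct score, slide and the animals left cannot be told apart in such values.

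Brca1, the gene of the genotype, was read by a probe at chr10:90512623-90512682. Its log2 signal was -0.77, -0.74, 0.17 and -0.91 in WT olaparib ovaries, -0.95, -0.78, -1.29 and -1.44 in BRCA1+/- vehicle ovaries, and -0.15, -0.11, -0.70 and -0.81 in WT vehicle ovaries. The BRCA1+/- vehicle values were lower on average than those of both wild-type groups, but they overlapped with them. The difference was 0.55 ± 0.27 (SE, 95% interval -0.03 to 1.14), with an unadjusted p of 0.0608 in limma and a two-sided exact permutation p of 0.0571, where 4 against 4 arrays can reach 0.0286. It was 0.11 on slide 1 and 1.00 on slide 2, 0.31 without WT olaparib replicate 3, whose value was the highest of its group, and 0.04 without the 6 arrays of positive oviduct score. Against WT vehicle, Brca1 stood at -0.67 in BRCA1+/- vehicle ovaries (exact permutation p 0.0571) and at -0.12 in WT olaparib ovaries (exact permutation p 0.8). The place of the probe relative to the changed part of the allele is not known here, and its signal is only a partial check of the labels.

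The main targets of olaparib, Parp1 and Parp2, were at close levels in both groups. Parp1, the main DNA break sensor of the family, had log2 signals of 3.79, 4.26, 4.11 and 4.18 in WT olaparib ovaries and 4.23, 4.20, 3.81 and 3.96 in BRCA1+/- vehicle ovaries. The Parp1 difference was 0.03 (95% interval -0.30 to 0.37). Parp2, which shares the break-sensing role, differed by -0.02 (95% interval -0.62 to 0.59). For Parp3, which acts in the joining of DNA ends, the difference was 0.23 and its interval was wider, from -0.63 to 1.1. The signs of these 3 differences turned with single arrays or slides, and all 3 were small against their intervals.

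Over all genes, no difference between WT olaparib and BRCA1+/- vehicle ovaries passed the test. Of 20359 genes tested with limma, 0 (0.0%) were called, which took a p under 0.05 after Benjamini-Hochberg adjustment, and the lowest adjusted p was 1.0. At an unadjusted p under 0.05 there were 518 (2.54%), of which 176 were higher in WT olaparib ovaries (0.864%) and 342 lower (1.68%), while 5% of all genes would be 1018. All 4 values of a group lay above or below all 4 of the other for 243 genes (1.19%), with WT olaparib higher in 124 (0.609%) and lower in 119 (0.585%). Many of the differences had narrow intervals. For 12727 genes (62.5%), the 95% interval lay within 1 log2 unit of 0 on both sides, which bounds the difference of each to less than 2-fold. The median size of a difference was 0.16 and the median SE was 0.30. Without the 6 arrays of positive oviduct score, limma again called 0 genes, 829 were at an unadjusted p under 0.05 and 7620 had a bounded difference.

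The same fit placed each group against WT vehicle. Between WT olaparib and WT vehicle ovaries, limma called 0 genes (0.0%), and 894 were at an unadjusted p under 0.05 (4.39%). BRCA1+/- vehicle against WT vehicle ovaries gave 0 called genes (0.0%) and 1120 with an unadjusted p under 0.05 (5.5%). The lowest adjusted p was 0.96 for the drug and 0.597 for the genotype. Both comparisons use the WT vehicle arrays, and each uses the arrays of 1 of the groups set head to head, so the 3 comparisons are not independent.

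**Figure D1:**
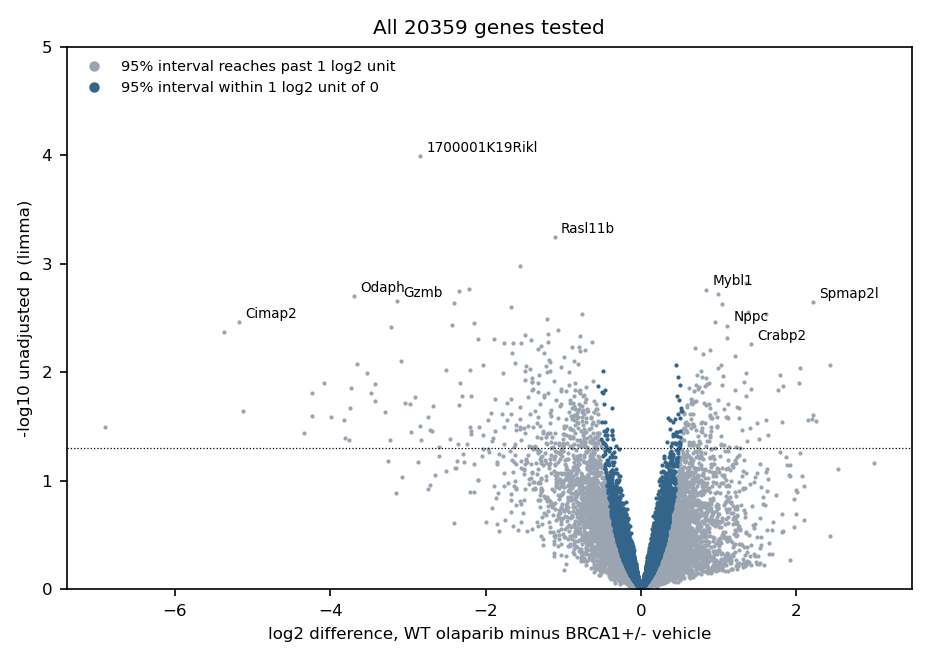
Each point is 1 of 20359 genes. The x axis is the log2 difference, WT olaparib minus BRCA1+/- vehicle, the y axis is -log10 of the unadjusted limma p, the dotted line marks the threshold of 0.05, and dark points are the 12727 genes whose 95% interval lies within 1 log2 unit of 0. Points past the dotted line number 518, and none of them passed the adjusted threshold.

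The genes named next had the smallest unadjusted p in each direction. They are given as values that did not pass the test. Among those higher in WT olaparib ovaries, several had means in which the drug group lay close to WT vehicle and the genotype group lay below both, and 4 of these are described first. Kcnt1, a sodium-activated potassium channel (chr3:4088922-4088981), had log2 signals of 1.59, 2.15, 1.40 and 1.70 in WT olaparib ovaries, 0.96, 0.94, 0.26 and 0.88 in BRCA1+/- vehicle ovaries, and 2.03 to 2.30 in WT vehicle ovaries. Every WT olaparib value was above every BRCA1+/- vehicle value, with a difference of 0.95 ± 0.27 (SE, unadjusted p 0.00344), and a further kept Kcnt1 probe gave 0.81. Nppc encodes the precursor of C-type natriuretic peptide, which in the mouse is made by granulosa cells and keeps the oocyte in meiotic arrest. Its log2 signals were 0.58, 0.32, 0.89 and 0.88 in WT olaparib ovaries, -1.02, -0.10, -0.61 and -0.01 in BRCA1+/- vehicle ovaries, and -0.01 to 0.95 in WT vehicle ovaries. The groups set head to head did not overlap, and the difference was 1.11 (95% interval 0.42 to 1.79, unadjusted p 0.00371), with 1.01 on slide 1 and 1.20 on slide 2.

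Crabp2 encodes a carrier of retinoic acid in the cytoplasm. It had log2 signals of 6.56, 7.59, 5.79 and 6.75 in WT olaparib ovaries, 5.53, 4.98, 4.70 and 5.81 in BRCA1+/- vehicle ovaries, and 6.47 to 7.46 in WT vehicle ovaries. The lowest drug value lay just under the highest genotype value, and the difference was 1.42 (95% interval 0.49 to 2.35, unadjusted p 0.00548), close to the 1.43 of another Crabp2 probe. Mro, described in the developing gonad of the mouse, differed by 1.11 (unadjusted p 0.00483), with 1.93 to 2.87 in WT olaparib ovaries, 0.74 to 2.00 in BRCA1+/- vehicle ovaries and 2.64 to 2.79 in WT vehicle ovaries. Against WT vehicle, the drug and genotype differences were -0.41 and -1.36 for Kcnt1, 0.09 and -1.01 for Nppc, -0.25 and -1.67 for Crabp2, and -0.20 and -1.31 for Mro. In BRCA1+/- olaparib ovaries these 4 genes spread widely, for example from 0.85 to 2.28 for Kcnt1 and from 5.39 to 7.44 for Crabp2.

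The proximal promoters of Nppc and Crabp2 are shown because both genes had this pattern, although the pair was chosen after the values were seen. Those of Kcnt1 and Mro are not shown, so letters shared by this pair cannot be read as a trait of the pattern. The stretches are from RefSeq on the build GRCr8, each of 300 bases from 250 before to 50 after the start of the gene, written 5′ to 3′ on the strand of the gene, and the capitals mark the TATA-box letters TATAAA. That of Nppc is chr9:94772137-94772436 on the minus strand, with 68.0% G and C and the motif starting 48 bases before the start of the gene. That of Crabp2 is chr2:175714612-175714911 on the plus strand, with 61.0% G and C and the motif starting 73 bases before the start.
Nppc: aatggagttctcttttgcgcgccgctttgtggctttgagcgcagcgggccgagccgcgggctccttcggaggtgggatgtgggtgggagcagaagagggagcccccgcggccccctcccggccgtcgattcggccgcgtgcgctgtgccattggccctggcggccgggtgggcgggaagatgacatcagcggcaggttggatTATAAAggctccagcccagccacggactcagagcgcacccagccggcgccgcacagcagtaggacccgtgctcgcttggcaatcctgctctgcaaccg
Crabp2: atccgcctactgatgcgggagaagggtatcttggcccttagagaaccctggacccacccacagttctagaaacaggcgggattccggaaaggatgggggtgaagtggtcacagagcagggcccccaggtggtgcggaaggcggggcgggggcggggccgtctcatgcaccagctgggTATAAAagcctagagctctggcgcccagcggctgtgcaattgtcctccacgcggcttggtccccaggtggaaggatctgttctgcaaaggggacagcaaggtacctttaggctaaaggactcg
The letters TATAAA, searched on both strands, were present in 14.3% of the 27457 rat promoters of that table. GGGCGG was in both stretches and in 34.9% of all promoters, while TGACGTCA (1.91% of all), TGANTCA (7.33%) and AAGGTCA (4.37%) were in neither. A match is a run of letters and not a measured site.

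**Figure D2:**
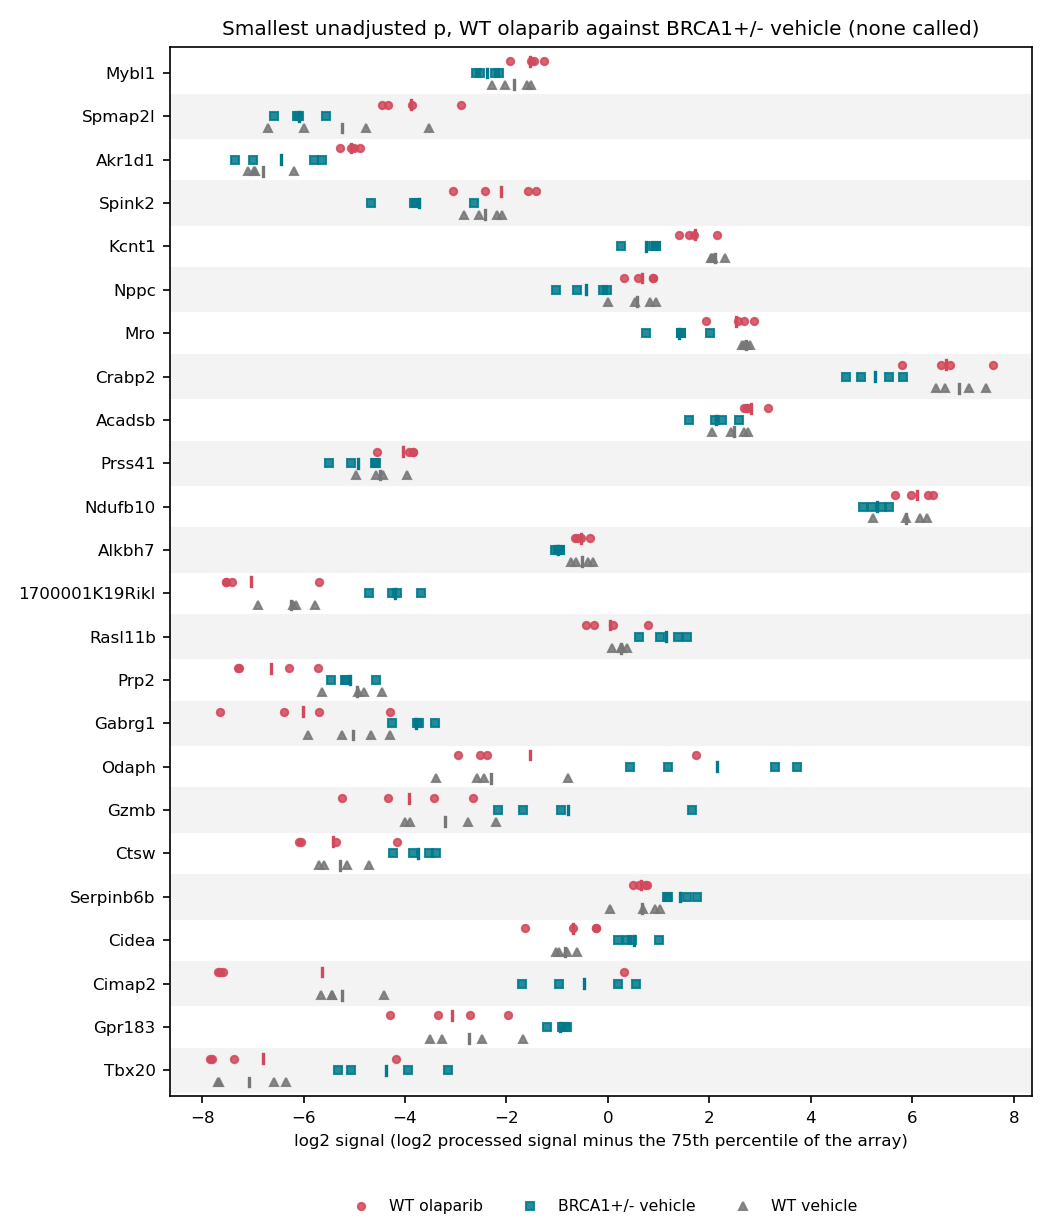
Log2 signals of the 12 genes in each direction with the smallest unadjusted p between WT olaparib and BRCA1+/- vehicle ovaries, with 1 point per array (n = 4 per group) and a vertical tick at the group mean. The WT vehicle arrays are drawn below them. The first 12 genes are higher and the last 12 lower in WT olaparib ovaries, and the 4 Kcnt1 points of WT olaparib ovaries, from 1.40 to 2.15, all lie right of the 4 of BRCA1+/- vehicle ovaries, from 0.26 to 0.96.

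Mybl1, a transcription factor known for its part in male meiosis, had the smallest p of the 12. Its log2 signals were -1.51, -1.46, -1.27 and -1.93 in WT olaparib ovaries and -2.61, -2.16, -2.22 and -2.53 in BRCA1+/- vehicle ovaries. These did not overlap (difference 0.84 ± 0.22, unadjusted p 0.00173), and the WT vehicle values from -2.28 to -1.52 reached into both. Spink2, a protease inhibitor best known from sperm, differed by 1.61 with overlapping values, and a further probe gave 1.90. Its drug and genotype differences against WT vehicle were 0.30 and -1.31. Acadsb (0.70), a mitochondrial enzyme of branched-chain acid breakdown, and Ndufb10 (0.80), a subunit of respiratory complex I, were higher on all 4 WT olaparib arrays, as were the mitochondrial Alkbh7 (0.45) and the protease Prss41 (0.89). Another kept Acadsb probe gave 0.28.

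Dim probes allow only a bound on the fold. Spmap2l was well above background on 4 WT olaparib arrays and on 0 BRCA1+/- vehicle arrays. Its log2 signals were -4.45, -4.33, -3.86 and -2.90 in WT olaparib ovaries against -5.57, -6.58, -6.14 and -6.09 in BRCA1+/- vehicle ovaries. Its measured mean was thus at least 3.81-fold higher in WT olaparib ovaries. Akr1d1, a reductase of steroid hormones and bile acid precursors, was at least 2.04-fold higher than in BRCA1+/- vehicle ovaries and at least 2.02-fold higher than in WT vehicle ovaries, with 0 arrays well above background in either vehicle group. The bounds compare the mean of the bright group with the dim arrays raised to the lowest signal that was well above background.

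On the lower side, the smallest p of all genes belonged to 1700001K19Rikl (chr6:135393332-135393391). It had log2 signals of -7.53, -7.40, -7.53 and -5.70 in WT olaparib ovaries, against -4.16, -3.69, -4.70 and -4.26 in BRCA1+/- vehicle ovaries. No WT olaparib array and 3 BRCA1+/- vehicle arrays were well above background, so it was at least 3.29-fold lower in WT olaparib ovaries (unadjusted p 1.01e-04, adjusted p 1.0 in limma). No WT vehicle array, at -6.90 to -5.77, was well above background either. Prp2 was also not well above background on any WT olaparib array and was at least 1.88-fold lower than in BRCA1+/- vehicle ovaries and at least 2.07-fold lower than in WT vehicle ovaries.

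Most of the other lower genes stood above WT vehicle in BRCA1+/- vehicle ovaries and near it in WT olaparib ovaries. Rasl11b, a small GTPase, had log2 signals of -0.27, -0.44, 0.78 and 0.10 in WT olaparib ovaries, 1.56, 1.03, 0.61 and 1.39 in BRCA1+/- vehicle ovaries, and 0.09 to 0.38 in WT vehicle ovaries. WT olaparib replicate 3 and BRCA1+/- vehicle replicate 3 crossed, and the difference was -1.11 ± 0.25 (SE, unadjusted p 5.7e-04), of which slide 1 gave -1.65 and slide 2 gave -0.56. Serpinb6b, a serine protease inhibitor, did not overlap, with 0.49 to 0.77 in WT olaparib ovaries, 1.17 to 1.75 in BRCA1+/- vehicle ovaries and a difference of -0.76. Cidea, a lipid droplet protein, differed by -1.21 without overlap, with -1.63 to -0.23 in WT olaparib ovaries against 0.21 to 1.01 in BRCA1+/- vehicle ovaries. Gabrg1, a subunit of the GABA-A receptor, differed by -2.22, but only 1 of its WT olaparib arrays was well above background.

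A set of lower genes rested on 3 of the 4 WT olaparib arrays. Cimap2, a protein of ciliary microtubules, had log2 signals of -7.68, -7.64, -7.58 and 0.32 in WT olaparib ovaries, 0.20, -0.97, -1.70 and 0.56 in BRCA1+/- vehicle ovaries, and -5.65 to -4.41 in WT vehicle ovaries. WT olaparib replicate 4 was at the level of the BRCA1+/- vehicle arrays while the other 3 were not well above background. Fosl1, a member of the AP-1 transcription factors, had -5.49, -4.01, -5.58 and 1.32 in WT olaparib ovaries against 0.99, -1.21, -0.07 and 0.63 in BRCA1+/- vehicle ovaries, with the same replicate apart. Odaph, known from tooth enamel, and the cardiac T-box factor Tbx20 had the same replicate highest, at 1.73 and -4.18. With all arrays the differences were -5.17 for Cimap2, -3.52 for Fosl1, -3.69 for Odaph and -2.43 for Tbx20, and none was called. Without WT olaparib replicate 4, limma called 2 genes, Cimap2 (-7.16, adjusted p 0.0145) and Fosl1 (-5.11, adjusted p 0.0401), and 1256 genes had an unadjusted p under 0.05. The Cimap2 value of -7.16 rests on dim signals, since its 3 WT olaparib arrays were not well above background. Without the 6 arrays of positive oviduct score, the differences were -3.27 for Cimap2 (unadjusted p 0.168), -1.24 for Fosl1 (unadjusted p 0.45) and -1.54 for Tbx20. In that setting, WT olaparib replicate 4 was 1 of the 2 WT olaparib arrays left. What sets WT olaparib replicate 4 apart was not tested.

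Genes of cytotoxic lymphocytes were lower in WT olaparib than in BRCA1+/- vehicle ovaries by count. Gzmb, the granule protease by which T and NK cells kill, had log2 signals of -4.33, -3.43, -5.23 and -2.65 in WT olaparib ovaries and -1.68, 1.66, -2.16 and -0.93 in BRCA1+/- vehicle ovaries. These did not overlap (difference -3.14, 95% interval -4.94 to -1.33, unadjusted p 0.0022), and another Gzmb probe gave -2.87. Ctsw, a protease of the same cells, differed by -1.67, with 1 WT olaparib array well above background, and by -0.73 without the 6 arrays of positive oviduct score. Of 20 listed T and NK cell markers, 12 were tested, and 10 were lower and 2 higher, with a median difference of -0.48 beside a median of 0.01 and 52.4% higher over all genes. In 4 of the 12, every WT olaparib value was below every BRCA1+/- vehicle value, as it was in 0.585% of all genes. Of these 12, 3 had an unadjusted p under 0.05, namely Gzmb, the interleukin-2 receptor subunit Il2rb (-1.17) and the T cell receptor subunit Cd3g (-0.80), and 0 were called.

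The T and NK cell list score was -0.25, -0.31, -0.52 and 0.04 in WT olaparib ovaries, 0.21, 0.65, 0.11 and 0.59 in BRCA1+/- vehicle ovaries, and -0.52, 0.17, 0.27 and -0.56 in WT vehicle ovaries. The groups set head to head did not overlap, and WT vehicle ovaries reached into both. Among the 32 lists, the heat shock score, given below, did not overlap either. Against WT vehicle, the T and NK cell median was -0.15 for the drug, with 10 of 12 lower. For the genotype it was 0.40, with 10 of 12 higher. The head-to-head list median was -0.61 on slide 1 and -0.60 on slide 2. It lay between -0.62 and -0.46 when any 1 array of either group was left out, and was -0.34 without the 6 arrays of positive oviduct score. Gpr183, an oxysterol receptor that guides lymphocytes, was named by its p and not as a list member, and it had log2 signals of -3.34, -2.72, -4.30 and -1.97 in WT olaparib ovaries against -0.85, -0.91, -1.20 and -0.81 in BRCA1+/- vehicle ovaries (difference -2.14). In whole ovaries, fewer cells of a type and less RNA per cell cannot be told apart.

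Other markers of blood-borne and vessel cells also tended to the lower side, less evenly. Of 19 tested macrophage genes, 18 were lower (median -0.40), with Clec10a, a lectin of these cells, nearest to a difference at -0.70 (unadjusted p 0.0741). The macrophage median was 0.00 on slide 1 and -0.97 on slide 2, and -0.17 without WT olaparib replicate 3. It was -0.18, with 6 of 19 higher, without the 6 arrays of positive oviduct score. Endothelial genes were lower in 15 of 18 (median -0.41), and the tight-junction gene Cldn5, at 1.02 to 1.32 in WT olaparib ovaries and 1.51 to 2.00 in BRCA1+/- vehicle ovaries, did not overlap (difference -0.62, unadjusted p 0.0289). The endothelial median was 0.10 without the 6 arrays of positive oviduct score. Of 15 red blood cell genes, 14 were lower (median -0.38), including the alpha globin Hba-a3, whose log2 signal was 3.99, -7.92, -7.71 and 2.90 in WT olaparib ovaries against 4.34 to 5.0 in BRCA1+/- vehicle ovaries. The 2 lowest Hba-a3 values were not well above background, and globin genes are near-identical copies that a probe may share. Among B cell genes 4 of 6 were lower (median -0.28), led by Fcrla at -0.50, and among neutrophil genes 5 of 6 were higher (median 0.34), although the formyl peptide receptor Fpr1 differed by -0.61. The neutrophil median was -0.09 without WT olaparib replicate 4.

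Granulosa genes had no common direction, and few follicle genes were shown to lie close. A difference bounded within 1 log2 unit was found for 7 of 22 granulosa genes (31.8%), beside 62.5% over all genes. It was found for 3 of 19 genes of growing oocytes (15.8%) and 2 of 9 of small-follicle oocytes (22.2%). Of 22 tested granulosa genes, 13 were higher and 9 lower (median 0.09), 0 were called, and the 3 with an unadjusted p under 0.05 were all higher in WT olaparib ovaries. Inhbb encodes the beta B subunit of activin and inhibin B. Its log2 signals were 5.82, 6.12, 5.95 and 5.87 in WT olaparib ovaries, 5.32, 5.05, 3.81 and 5.35 in BRCA1+/- vehicle ovaries, and 5.07 to 6.06 in WT vehicle ovaries. Every WT olaparib value was above every BRCA1+/- vehicle value, with a difference of 1.06 (95% interval 0.28 to 1.83, unadjusted p 0.0109). Fst, which encodes the activin-binding protein follistatin, differed by 0.64, with a genotype difference of -1.11 and a drug difference of -0.47 against WT vehicle. Hsd17b1 differed by 0.60, with a genotype difference of -0.75 and a drug difference of -0.15. The granulosa list median was -0.02 without WT olaparib replicate 3.

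Oocyte genes were lower in WT olaparib than in BRCA1+/- vehicle ovaries by count, but with a wide spread between animals. Of 19 tested genes of growing oocytes, 18 were lower (median -0.40), and of 9 tested genes of oocytes in small follicles, 8 were lower (median -0.35), with 0 members in either list at an unadjusted p under 0.05. The score of growing oocytes was -0.16, -0.84, 1.05 and -0.79 in WT olaparib ovaries, 0.79, 0.18, 0.38 and -0.51 in BRCA1+/- vehicle ovaries, and -0.02, 0.47, -0.14 and -0.53 in WT vehicle ovaries. WT olaparib replicate 3 was the highest of all 12 of these arrays, and replicates 2 and 4 of the same group were the lowest. The median was -1.04 on slide 1 and 0.21 on slide 2, -0.86 without WT olaparib replicate 3 and -0.19 without WT olaparib replicate 2. Without the 6 arrays of positive oviduct score it was -1.37, and that of small-follicle oocytes -1.13. The WT olaparib arrays left there were replicates 2 and 4, the lowest in the growing-oocyte score. Against WT vehicle with all arrays, the growing-oocyte median was -0.08 for the drug, with 15 of 19 lower. It was 0.30 for the genotype, with 18 of 19 higher. The small-follicle medians were -0.12 for the drug and 0.08 for the genotype. Padi6, which growing oocytes need for their cytoplasmic lattices in the mouse, had the smallest p of its list and differed by -0.67 (unadjusted p 0.118), and Taf4b, a transcription factor subunit of small-follicle oocytes, differed by 0.37, although 2 other kept Taf4b probes gave -0.25 and -0.26.

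Steroid, ovulation and cholesterol genes gave mixed counts. Of 18 theca and steroidogenic genes, 12 were higher (median 0.04), with the reductase Akr1c14 at -0.42. Among 16 luteal and ovulatory genes 10 were lower (median -0.20), and 3 had an unadjusted p under 0.05, all lower. These were Ptx3 (-1.17), a protein of the matrix around the ovulated oocyte, the EGF-like ligand Areg (-2.18) and the prostaglandin F receptor Ptgfr (-3.22). The Ptgfr values of -4.27, -0.93, -7.16 and 1.89 in WT olaparib ovaries spread far wider than the -0.20, 1.67, 0.02 and 0.92 of BRCA1+/- vehicle ovaries. When any 1 array of either group was left out, the Ptgfr difference ran from -4.73 to -1.71. Without the 6 arrays of positive oviduct score it was -0.26 (unadjusted p 0.842), and that of Areg was -0.71 (unadjusted p 0.536). The luteal median was 0.17 without WT olaparib replicate 3 and 0.44 without the 6 arrays of positive oviduct score. Of 23 cholesterol synthesis and uptake genes, 20 were higher (median 0.10), with mevalonate kinase, Mvk, at 0.89, and this median was 0.59 without WT olaparib replicate 3 and -0.14 without WT olaparib replicate 4. It was 0.76, with 22 of 23 higher, without the 6 arrays of positive oviduct score.

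**Figure D3:**
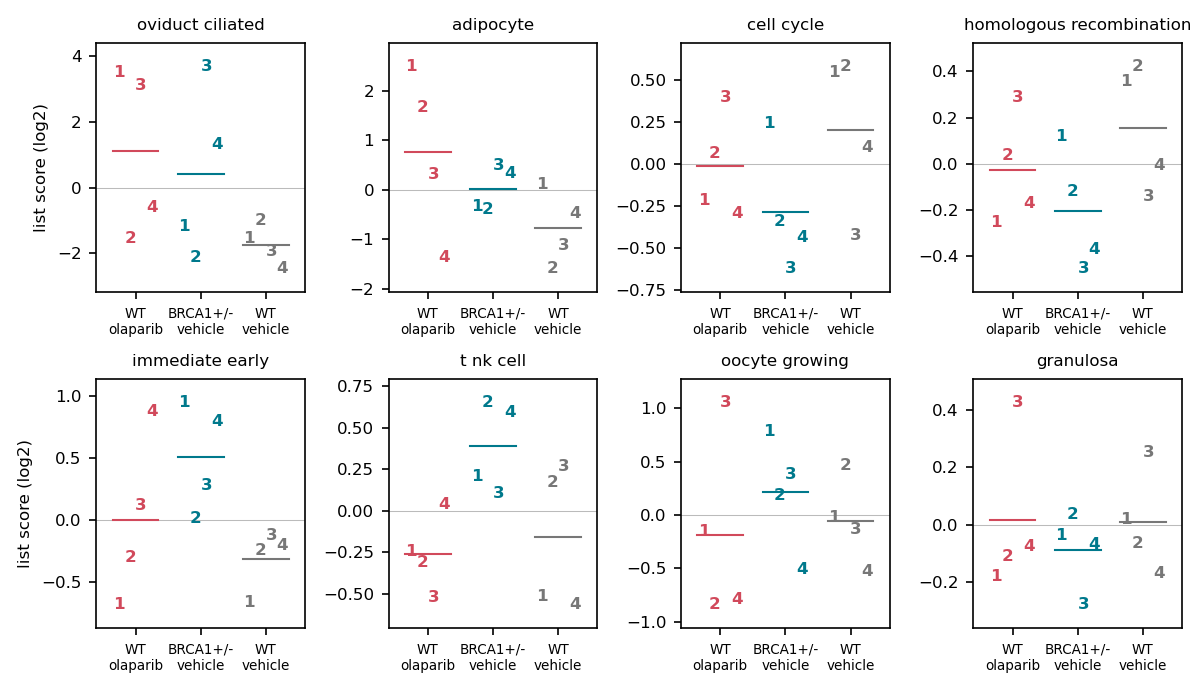
List scores per array, each the mean log2 signal of a list's tested genes with each gene centred on its own mean over the series. Each digit is 1 array and gives its replicate number, horizontal lines are group means, and the y axes differ between panels. In the oviduct panel, replicates 1 and 3 of WT olaparib and 3 and 4 of BRCA1+/- vehicle lie above 0, and in the T and NK cell panel the highest WT olaparib array, at 0.04, lies below the lowest BRCA1+/- vehicle array, at 0.11.

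Genes of tissue beside the ovary gave the highest list medians. Adipocyte genes were higher in WT olaparib ovaries in 14 of 15 (median 0.75), oviduct and ciliated cell genes in 15 of 16 (median 0.70) and surface epithelium and mesothelium genes in 13 of 14 (median 0.46), with 0 called in each. Each of these medians changed sign between the slides, with 2.33 on slide 1 and -0.69 on slide 2 for adipocyte genes, 2.68 and -1.20 for oviduct genes, and 2.05 and -1.21 for surface epithelium genes. The adipocyte score was 2.48, 1.67, 0.31 and -1.37 in WT olaparib ovaries, -0.35, -0.40, 0.48 and 0.33 in BRCA1+/- vehicle ovaries, and -1.58 to 0.11 in WT vehicle ovaries. Its median was 0.11 without WT olaparib replicate 1 and 1.73 without WT olaparib replicate 4, and that of the oviduct list was -0.15 without WT olaparib replicate 1. The surface epithelium median was 0.03 without WT olaparib replicate 1, 1.43 without WT olaparib replicate 4, and 0.40 with 9 of 14 higher without the 6 arrays of positive oviduct score. Slc7a10, an amino acid transporter of white fat cells, differed by 1.61 (unadjusted p 0.0274), whereas Cidea of the same list was the exception given above. The smallest p in the oviduct list was 0.486, for Pax8, a transcription factor of oviduct epithelium, at 2.34, -1.19, 2.09 and -1.97 in WT olaparib ovaries and -1.0, -2.51, 2.38 and -0.77 in BRCA1+/- vehicle ovaries. Gpm6a, a membrane glycoprotein in the surface epithelium list, differed by 0.69. Stroma and smooth muscle genes had 8 of 20 higher (median -0.07), with the matrix protein Ogn at -0.36. The stroma median near 0 joined opposite values on the slides, 0.44 on slide 1 and -0.65 on slide 2. The part of fat or oviduct tissue in any other result was not tested.

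Genes of base excision repair and end joining lay close together in both groups. Of 26 tested genes of base excision repair and the PARP family, 25 (96.2%) had a difference bounded within 1 log2 unit, as had 14 of 15 genes of end joining (93.3%) and 22 of 32 homologous recombination genes (68.8%), beside 62.5% over all genes, so the homologous recombination share was near that of all genes. The 3 medians were 0.02, 0.04 and 0.22. Mpg, the glycosylase that removes alkylated purines, was the only member of these 3 lists with an unadjusted p under 0.05, at 0.12 to 0.63 in WT olaparib ovaries and 0.62 to 0.88 in BRCA1+/- vehicle ovaries (difference -0.36, unadjusted p 0.0416). Mus81, a nuclease subunit that cuts recombination intermediates, differed by -0.46 (unadjusted p 0.0529), and Shld1, of the shieldin complex that limits end resection, by -0.45. Against WT vehicle, the homologous recombination median was -0.18 for the drug and -0.40 for the genotype.

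Cell cycle genes had the same lean as homologous recombination genes. Of 40 tested, 36 were higher in WT olaparib than in BRCA1+/- vehicle ovaries (median 0.27), and of 32 homologous recombination genes 26 were higher. Against WT vehicle, both groups had most cell cycle genes lower, 37 of 40 for the drug (median -0.21) and 38 of 40 for the genotype (median -0.53). The cell cycle score was -0.22, 0.06, 0.39 and -0.30 in WT olaparib ovaries, 0.24, -0.34, -0.62 and -0.44 in BRCA1+/- vehicle ovaries, and 0.54, 0.58, -0.42 and 0.10 in WT vehicle ovaries, so the groups overlapped. Its median was -0.08 on slide 1 and 0.61 on slide 2, and the homologous recombination median was -0.08 and 0.51. Without the 6 arrays of positive oviduct score, 16 of 40 cell cycle genes were higher (median -0.07) and 13 of 32 homologous recombination genes (median -0.06). The only cell cycle gene with an unadjusted p under 0.05 ran the other way. Aurka, the mitotic kinase Aurora A, had log2 signals of 1.22, 2.01, 1.75 and 3.34 in WT olaparib ovaries and 4.09, 3.05, 2.54 and 3.44 in BRCA1+/- vehicle ovaries (difference -1.20, unadjusted p 0.00996).

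Targets of p53 and genes of the oocyte checkpoint and apoptosis showed no common shift with all arrays. Of 26 targets of p53, 14 were higher (median 0.03), and Aen, an apoptosis-enhancing nuclease, was the only one with an unadjusted p under 0.05 (0.51, p 0.0397). The p53 target median was 0.38, with 21 of 26 higher, without the 6 arrays of positive oviduct score. Among 16 genes of the oocyte checkpoint and apoptosis, 7 were higher (median -0.11), with the survival factor Mcl1 at -0.29. Heat shock genes were higher in 16 of 20 (median 0.12, Hsp90ab1 at 0.31), with 0 members at an unadjusted p under 0.05. Their score did not overlap, at 0.02 to 0.12 in WT olaparib and -0.13 to 0.01 in BRCA1+/- vehicle ovaries. WT vehicle ovaries, at -0.26 to 0.20, reached past both. The heat shock median was 0.10 on slide 1 and 0.13 on slide 2. Unfolded protein response genes were higher in 12 of 16 (median 0.09, Hsp90b1 at 0.27). The antioxidant targets of NRF2 had 8 of 19 higher (median -0.10, Osgin1 at -1.72, with a single low value of -2.93 on WT olaparib replicate 3). The NRF2 median was 0.15 and the Osgin1 difference -0.22 without the 6 arrays of positive oviduct score. Of 25 interferon genes 11 were higher (median -0.01), with Batf2 at 0.89.

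Immediate-early and glucocorticoid-response genes leaned to the lower side. Of 26 immediate-early genes, which respond within minutes to growth signals and tissue handling, 23 were lower (median -0.32), and 2 had an unadjusted p under 0.05. These were Fosl1, described above, and Ccn2, a matrix protein induced by TGF-beta and YAP signalling (-0.86, unadjusted p 0.0205). The score was -0.67, -0.30, 0.12 and 0.87 in WT olaparib ovaries, 0.95, 0.02, 0.28 and 0.79 in BRCA1+/- vehicle ovaries, and -0.66 to -0.12 in WT vehicle ovaries, and the median was -0.65 on slide 1 and 0.00 on slide 2. Of 15 glucocorticoid-response genes, 12 were lower (median -0.37), with 3 at an unadjusted p under 0.05. Pdk4, a kinase that holds pyruvate dehydrogenase inactive, had -0.36, -0.84, -0.12 and -1.13 in WT olaparib ovaries and 0.67, 1.73, -0.71 and 0.74 in BRCA1+/- vehicle ovaries (difference -1.22). Klf9 (-0.51), a hormone-induced transcription factor, and Errfi1 (-0.54), a brake on EGF receptor signalling, were the others. The glucocorticoid median was -0.13 without WT olaparib replicate 3, which had the lowest score of its group.

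Of the remaining lists, the circadian clock had 7 of 17 higher (median -0.04), with the repressor Nfil3 at -0.79, 0.09, -0.54 and 0.46 in WT olaparib ovaries and 0.81, 0.62, 0.64 and 0.34 in BRCA1+/- vehicle ovaries (difference -0.80, unadjusted p 0.0058, and -0.44 without the 6 arrays of positive oviduct score). TGF-beta and BMP genes had 9 of 25 higher (median -0.06). In that list the ligand Bmp4, at 0.10, 0.39, -0.20 and -1.18 in WT olaparib ovaries and -1.22, -0.83, -1.12 and -1.09 in BRCA1+/- vehicle ovaries, differed by 0.84, while the inhibitor Smad7 differed by -0.62. Imprinted growth genes had 10 of 18 higher (median 0.05), with Peg3 at 0.48. Drug efflux and metabolism genes had 4 of 10 higher (median -0.05). Abcb1b, which encodes a P-glycoprotein pump that olaparib is a substrate of, had log2 signals of 4.68, 4.48, 6.96 and 5.45 in WT olaparib ovaries, 6.77, 6.45, 6.30 and 6.12 in BRCA1+/- vehicle ovaries and 4.73 to 6.01 in WT vehicle ovaries (difference -1.02, unadjusted p 0.0595).

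**Figure D4:**
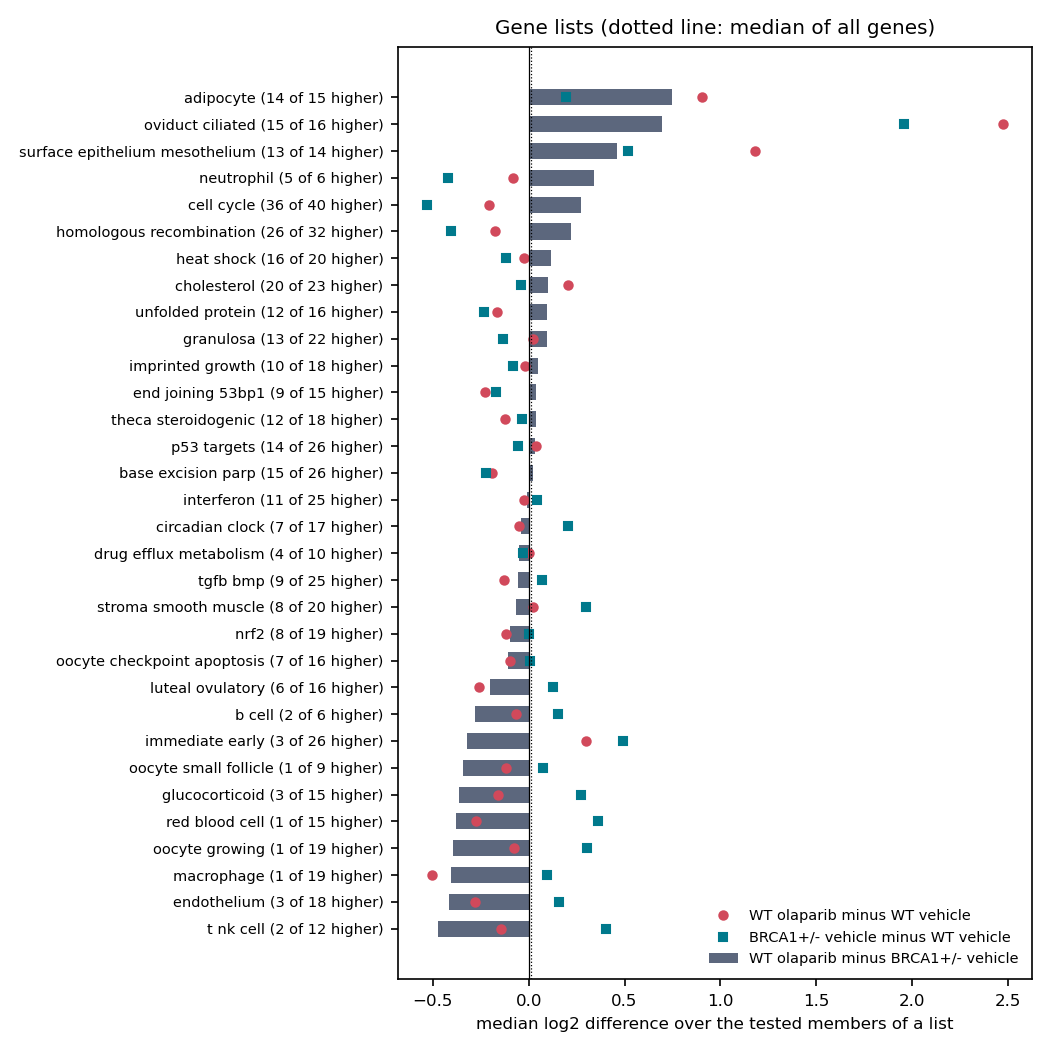
Median log2 difference over the tested members of each of 32 gene lists. Bars give WT olaparib minus BRCA1+/- vehicle, circles WT olaparib minus WT vehicle and squares BRCA1+/- vehicle minus WT vehicle, which share arrays, and the dotted line is the median of all genes. Bars run from -0.48 for T and NK cells to 0.75 for adipocytes, and the list names carry the number of members higher in WT olaparib ovaries.

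A further set of genes lay on the same side of WT vehicle in both groups and close together between them. Both groups were compared with the same WT vehicle arrays, so a shift in those 4 arrays alone would move both differences the same way, and the values are given as a description. The H19 RNA, a maternally expressed imprinted transcript, had log2 signals of 2.72, 1.86, 1.56 and 2.49 in WT olaparib ovaries, 2.72, 1.15, 2.65 and 2.64 in BRCA1+/- vehicle ovaries, and 0.44, 0.26, 0.76 and 0.65 in WT vehicle ovaries. Both groups lay wholly above WT vehicle, by 1.63 for the drug (adjusted p 0.96) and 1.77 for the genotype (adjusted p 0.861), and they differed from each other by -0.13 (95% interval -0.97 to 0.71). BRCA1+/- olaparib ovaries, at 1.11, 2.32, 2.36 and 1.25, were above WT vehicle too. Without the 6 arrays of positive oviduct score, the H19 differences were 1.65 and 1.41.

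The other 5 genes on the higher side differed from WT vehicle by 2.06 for the drug and 1.98 for the genotype for Hspa4l, a chaperone, and by 1.90 and 1.99 for Rbp7, a retinoid-binding protein. The differences were 1.74 and 1.99 for the orphan nuclear receptor Nr4a3, and 0.65 and 0.82 for the chromatin remodeller Chd7. Chd7 had log2 signals of -2.44, -2.36, -2.88 and -2.41 in WT olaparib ovaries, -2.40, -2.41, -2.11 and -2.49 in BRCA1+/- vehicle ovaries and -2.84, -3.30, -3.42 and -3.13 in WT vehicle ovaries. Ccl1, a chemokine, was not well above background on any WT vehicle array and was at least 2.09-fold higher in WT olaparib and at least 2.27-fold higher in BRCA1+/- vehicle ovaries.

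On the lower side, Kif26b, a kinesin family member, was not well above background on any array of either group and was at least 2.20-fold lower in WT olaparib and at least 2.17-fold lower in BRCA1+/- vehicle ovaries than in WT vehicle ovaries. Kiss1, the precursor of kisspeptin, had a drug difference of -1.20 and was at least 2.41-fold lower in BRCA1+/- vehicle ovaries. Trmt6, a subunit of a tRNA methyltransferase, had log2 signals of 0.29, 1.01, 0.24 and 0.91 in WT olaparib ovaries, 0.51, 0.94, 0.31 and 0.59 in BRCA1+/- vehicle ovaries and 1.43, 1.58, 1.51 and 1.01 in WT vehicle ovaries. WT vehicle replicate 4 met the top of both groups, and the differences were -0.77 and -0.79. Akr1c2, an aldo-keto reductase with close paralogs, differed by -1.73 and -1.75, the mitochondrial carrier Slc25a43 by -0.82 and -1.14, and Ccdc43 by -1.20 and -1.37. None of these 12 genes passed the test in either comparison, and without the 6 arrays of positive oviduct score the Trmt6 differences were -0.42 and -0.65.

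**Figure D5:**
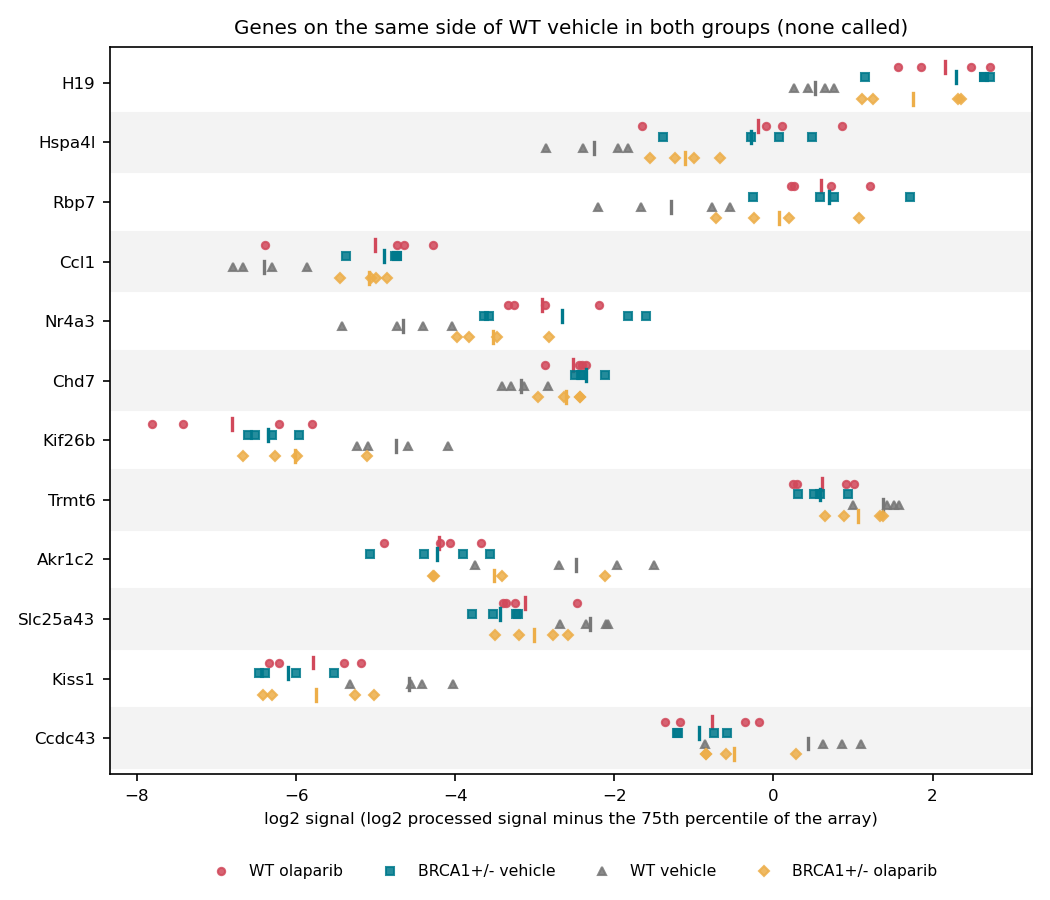
Log2 signals of the 6 genes in each direction that lay on the same side of WT vehicle in WT olaparib and BRCA1+/- vehicle ovaries, with 1 point per array (n = 4 per group) and a vertical tick at the group mean. The H19 points of WT olaparib, from 1.56 to 2.72, and of BRCA1+/- vehicle, from 1.15 to 2.72, lie right of those of WT vehicle, from 0.26 to 0.76.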

How the data were processed

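The 16 arrays were one-colour Cy3 Agilent whole-genome rat arrays read with Agilent Feature Extraction, version 10.7 per the submitters' processing notes and 10.7.1.1 per the file headers. The deposited processed signal is an intensity already background-subtracted and detrended, but not scaled between arrays, per the file headers. An alternative used the mean spot signal and local background, also intensity columns as the file headers name them. In the deposited table the authors gave log2 values, and each column matched the log2 of the processed signals up to 1 constant per array (Pearson r 1.0). How that constant was set is not stated in the sources used here. The 75th percentile of each deposited column was no further from 0 than the -0.0005 of WT olaparib replicate 2. The deposited values are therefore scaled nearly as in the main setting, and as an alternative they are close to a repeat of it. No spot was saturated.

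Of 45598 non-control probes, 12 were left out as outliers. Each log2 processed signal was scaled by the array's 75th percentile. The filter kept 26820 probes, those well above background in 3 or more of the 4 arrays in some group. Names came from transcript accessions (24496 probes), symbols (6626) or older symbols (258) in a RefSeq gene table on GRCr8, used for names only, while 143 probes kept the file's name and 14075 without a name stood for themselves. The brightest probe stood for a gene, which gave 20359 genes. Positions on rn4 were not checked against a genome.

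Limma 3.58.1 in R 4.3.3 fitted group means to the 16 arrays together (12 residual and 2.44 prior degrees of freedom), with two-sided tests, its own SE and 95% intervals, and Benjamini-Hochberg adjustment over all genes. The code of the fit was run on simulated data with 200 changed genes, all of low spread and with large changes. That run does not show what the fit can find in the real arrays.

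The named genes are Brca1 and Parp1 to Parp3, the 12 symbols in each direction with the smallest unadjusted p, from each of 32 gene lists up to 4 members with an unadjusted p under 0.05 or otherwise the first by p, and the 6 symbols in each direction on the same side of WT vehicle with the smallest value of the larger p. Names of the form LOC or RGD with a number were passed over. The members and lists were chosen with earlier results of these data known. Lists are described by counts and medians, without a test. Alternatives were quantile normalization, normexp background correction, the deposited table, 2 other filters on dim probes, the mean of a gene's probes, only the 8 arrays compared, slide and replicate as blocks, array weights, leaving out each array, and, chosen after seeing the data, leaving out 6 arrays of positive oviduct score. Replicate numbers were not taken to pair animals.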

Additional observations from a re-analysis of the deposited data

Results flagged for a closer look

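In 14 of 156 groups of 4 arrays examined, 1 array stood apart from the other 3 by Dixon's criterion at its 95% level, and chance alone flags about 1 group in 20. Brca1 stood apart on WT olaparib replicate 3, at 0.17 against -0.91 to -0.74 on the other 3 arrays. Of the other WT olaparib arrays, replicate 4 stood apart for 1700001K19Rikl (-5.70), Odaph (1.73), Cimap2 (0.32) and Tbx20 (-4.18). WT olaparib replicate 2 stood apart for Acadsb (3.15) and Slc25a43 (-2.46), and replicate 1 for Prss41 (-4.55). WT olaparib replicate 3 stood apart for Chd7 (-2.88) and for the score of the TGF-beta and BMP list (0.14). Among BRCA1+/- vehicle arrays, replicate 3 stood apart for Parp2 (0.20) and Kcnt1 (0.26), replicate 2 for H19 (1.15) and replicate 4 for Ccl1 (-5.37).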

How the results depend on the processing

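Leaving out 1 array gave 0 to 2 called genes between WT olaparib and BRCA1+/- vehicle ovaries, 0 with each array left out other than WT olaparib replicate 4, and every other alternative gave 0 called genes in all 3 comparisons. The number with an unadjusted p under 0.05 lay between 375 and 1256 when 1 array was left out (788 without WT olaparib replicate 3), and was 1121 with array weights and 829 without the 6 arrays of positive oviduct score. A bounded difference was found for 20305 genes with no filter on dim probes, where more genes were tested, and for 7620 without the 6 arrays. Whether the replicate numbers pair the animals is not known here. The deviations of same-numbered arrays correlated by -0.44, 0.69, 0.54 and 0.01 across genes, and such mixed values cannot decide it. The fit with a replicate block called 0 genes and gave 773 with an unadjusted p under 0.05. Of 93 differences of named genes, 84 kept their sign under every alternative run. Most of these genes were picked by their p in these same arrays, which favours a kept sign, so the count is no measure of stability. Among those not picked by p, Brca1 kept its sign and Parp1 to Parp3 did not. The signs that turned were those of Parp1 (-0.0018 with quantile normalization, -0.0152 with array weights, -0.0473 to 0.13 leaving out 1 array, -0.19 within slide 1), Parp2 (-0.21 to 0.15 leaving out 1 array, 0.10 within slide 2) and Parp3 (-0.0425 to 0.48 leaving out 1 array, -0.22 within slide 2). Taf4b was -0.0436 with the mean of its probes. Within slide 2, Akr1c14 was 0.27, Ogn 0.0064 and Pax8 -0.75, and within slide 1, Clec10a was 0.0382 and Hsp90b1 -0.22. Of 864 list medians under alternatives, 13 moved by more than the spread between arrays. The causes were not tested. With 4 arrays per group, the median SE was 0.30 and the 95% interval of the median gene reached 0.64 to either side. For such a gene, smaller differences could not be told from 0 even before adjustment. A call after adjustment over all genes took more, since 1700001K19Rikl, with an unadjusted p of 1.01e-04 in limma, was not called.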

Other observations

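Positions of the named genes on rn4 were compared after their values were seen, with no test. Of the 24 genes with the smallest p, 23 had a position, and 5 of them lay on chromosome 14, which holds 3.23% of the 19198 tested genes with a position. Spmap2l and Spink2, both higher in WT olaparib ovaries, lay 152 kb apart there, and Odaph and Areg, both lower, 824 kb apart. On chromosome 1 the probes of Ctsw and Fosl1, both lower in WT olaparib ovaries, lay 10.1 kb apart. Batf2, which ran the other way (0.89), lay 842 kb from Ctsw and 852 kb from Fosl1, so named neighbours did not always share a direction.

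Around Brca1 on chromosome 10, 130 other genes were tested within 2 Mb on either side. Of these, 75 were higher and 55 lower in WT olaparib than in BRCA1+/- vehicle ovaries (median 0.04), and 3 had an unadjusted p under 0.05, beside 52.4% higher and 2.54% at that p over all genes. Between BRCA1+/- vehicle and WT vehicle ovaries, 47 of them were higher and 83 lower (median -0.11), and 9 had an unadjusted p under 0.05, beside 42.1% higher and 5.5% at that p over all genes. These counts are near those of all genes.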
